A study of Mus musculus with 30 samples.

Results

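The genes described here are 34 enzymes, kinases, regulators and transporters of glycolysis, glycogen metabolism, the pentose phosphate pathway and lactate transport, taken as a fixed list of gene symbols. All 34 have a row among the 14997 genes analysed in the table of captured cells and among the 26005 genes of the table of cultured spheres. They comprise 13 genes of the glycolytic chain (Hk1, Hk2, Gpi1, Pfkl, Pfkm, Pfkp, Aldoa, Tpi1, Gapdh, Pgk1, Pgam1, Eno1 and Pkm), the lactate dehydrogenase genes Ldha and Ldhb, 4 genes of the entry of pyruvate into mitochondria (Pdha1, Pdk1, Pdk2 and Pdk4), 9 genes of glycogen (Pygm, Pygb, Pygl, Gys1, Gbe1, Ugp2, Pgm1, Pgm2 and Ppp1r3c), 4 of the pentose phosphate pathway (G6pdx, Pgd, Taldo1 and Tkt) and the monocarboxylate transporters Slc16a1 and Slc16a3.

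RNA was profiled in 30 mouse libraries. Floor plate cells of the midbrain were cut out by laser from mice of the genotype Lmx1aCreERT2; R26TRAPC, with 4 libraries at embryonic day 11 (E11), 5 at E13, 5 at E18 and 6 at postnatal day 70 (P70). Lmx1aCreERT2 is a tamoxifen-dependent recombinase under the floor plate gene Lmx1a, and every captured group carries both alleles. The other 10 libraries are adult spheres grown in vitro, 5 with the name MB and 5 with the name FB. The series' design text mentions ependymal spheres from the aqueduct of the midbrain and neurospheres from the lateral ventricle, without tying either to a library name, and gives no genotype for them. No label says whether libraries came from separate animals or cultures, so every p-value rests on the spread between libraries alone and is too small where libraries share a source.

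Glycolysis splits glucose into pyruvate. Hexokinase and phosphofructokinase are among its control points. Pyruvate is then either reduced to lactate by lactate dehydrogenase or oxidised in mitochondria by the pyruvate dehydrogenase complex, which the Pdk kinases switch off. The A subunit encoded by Ldha favours the step from pyruvate to lactate, and the B subunit encoded by Ldhb the return step. Glycogen is the stored form of glucose and in brain is held mainly by astrocytes, with ependymal cells known to contain it as well. It is built by glycogen synthase and branching enzyme and broken down by 3 phosphorylases named for brain (Pygb), muscle (Pygm) and liver (Pygl). The pentose phosphate pathway draws off glucose phosphate to make NADPH and the sugar of nucleotides, and proliferating tissue commonly has high hexokinase II and lactate dehydrogenase A.

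The isoenzyme pairs Ldha and Ldhb, Hk1 and Hk2, and Pygl and Pygm moved in different directions or by different amounts in the results below, so the 250 bases before a start of each gene are shown for comparison (RefSeq, GRCm38.p6, 5′ to 3′ on the gene's strand). Capitals mark ACGTG and GCGTG read on either strand, the core letters bound by hypoxia-inducible factors; ACGTG also lies inside CACGTG, the letters bound by several helix-loop-helix factors.
Ldha, chr7:46845554-46845803, plus strand: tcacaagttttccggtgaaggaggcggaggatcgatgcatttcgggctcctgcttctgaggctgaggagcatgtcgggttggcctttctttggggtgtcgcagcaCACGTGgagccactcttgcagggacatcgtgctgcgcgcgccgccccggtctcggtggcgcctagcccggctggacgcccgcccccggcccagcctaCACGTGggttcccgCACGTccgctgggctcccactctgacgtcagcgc
Ldhb, chr6:142507958-142508207, minus strand: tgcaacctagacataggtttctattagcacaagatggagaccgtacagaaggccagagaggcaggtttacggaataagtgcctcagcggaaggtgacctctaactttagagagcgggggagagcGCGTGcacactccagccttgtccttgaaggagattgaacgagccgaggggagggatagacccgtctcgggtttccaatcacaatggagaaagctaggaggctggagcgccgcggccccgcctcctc
Hk2, chr6:82774455-82774704, minus strand: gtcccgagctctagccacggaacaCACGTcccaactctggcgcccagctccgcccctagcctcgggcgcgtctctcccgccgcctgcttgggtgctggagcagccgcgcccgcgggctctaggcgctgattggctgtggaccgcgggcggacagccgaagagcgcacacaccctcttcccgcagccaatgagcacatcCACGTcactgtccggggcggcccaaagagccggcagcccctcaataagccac
Hk1, chr10:62340422-62340671, minus strand: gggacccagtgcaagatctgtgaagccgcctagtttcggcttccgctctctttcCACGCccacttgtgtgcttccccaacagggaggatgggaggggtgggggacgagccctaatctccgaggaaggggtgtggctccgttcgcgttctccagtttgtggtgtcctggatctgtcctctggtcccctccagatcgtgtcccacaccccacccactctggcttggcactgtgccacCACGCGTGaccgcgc
Pygl, chr12:70227684-70227933, minus strand: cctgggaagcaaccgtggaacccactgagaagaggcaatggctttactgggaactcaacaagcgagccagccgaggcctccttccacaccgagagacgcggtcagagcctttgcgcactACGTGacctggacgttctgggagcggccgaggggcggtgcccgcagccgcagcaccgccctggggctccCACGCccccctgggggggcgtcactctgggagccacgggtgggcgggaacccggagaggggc
Pygm, chr19:6384158-6384407, plus strand: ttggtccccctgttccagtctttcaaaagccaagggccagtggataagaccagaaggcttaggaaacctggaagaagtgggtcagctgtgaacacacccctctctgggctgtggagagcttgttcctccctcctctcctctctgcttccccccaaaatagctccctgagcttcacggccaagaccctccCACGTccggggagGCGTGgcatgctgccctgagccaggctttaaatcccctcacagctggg
The Ldha window shown held 3 marked stretches with 5 matches, all of them ACGTG, 2 of the stretches being CACGTG read on both strands. The window at the other Ldha start, at chr7:46846832-46847081, held 1 match, to GCGTG. The Ldhb window held 1 match, to GCGTG. Hk2 held 2 matches to ACGTG, and the Hk1 window shown held 3 to GCGTG, whereas the window at the other Hk1 start, at chr10:62379909-62380158, held 0. Pygl and Pygm each held 1 match to ACGTG and 1 to GCGTG. All 34 members had at least 1 window, 48 windows in all, of which 36 (75.0%) held ACGTG or GCGTG on either strand, compared with 12679 of 32851 windows of all genes (38.6%); windows of 1 gene can overlap, and base composition was not matched. For ACGTG alone the shares were 39.6% of member windows and 16.6% of all windows.

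Captured values behave as RPKM, reads scaled to gene length and library depth, and are called units here. The size of 1 read in each library placed its total at 4463611 to 5254625 reads in E11, 3855261 to 5891260 in E13, 3744350 to 4979960 in E18 and 1605596 to 3682379 in P70 libraries, so P70 values are the least precise. Sphere libraries held 6327198 to 9291311 counts, given as CPM, counts scaled to library depth. The captured table leaves a gene out of an age at which its mean falls under 1 unit, and it lists 31 members for E11, 31 for E13, 34 for E18 and 34 for P70. Summed midbrain floor plate markers, 9 genes in all, lay between 522 and 616 units at E11 and between 571 and 659 at E13, with 9 and 8 of the 9 listed. They lay between 204 and 297 units at E18 with 8 listed and between 119 and 169 at P70 with 7 listed. The floor plate regulator Lmx1a averaged 70.6 ± 8.59 units in E11 (SD, n = 4), 60.3 ± 11.4 in E13 (n = 5), 22.6 ± 1.40 in E18 (n = 5) and 4.89 ± 2.10 in P70 libraries (n = 6). In bulk samples, fewer cells of a type and less RNA per cell cannot be told apart.

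Of 30 members tested for E13 against E11, 3 were higher (Ldhb, Pdk2 and Pygb) and 7 were lower (Hk2, Pfkl, Aldoa, Pkm, Ldha, Pgd and Slc16a1), with limma on log2(units + 1) and an adjusted p under 0.05. Among all 11567 genes tested, 9.26% were higher and 11.2% lower. For E18 against E13, 15 of 31 members were higher and 7 lower, beside 22.2% higher and 24.8% lower among all 11797 genes; the median log2 change was 0.49 for the members and -0.04 for all genes. For P70 against E18, 3 of 34 were higher (Pkm, Ldhb and Pygm) and 16 lower, beside 16.8% higher and 23.9% lower among all 12353 genes, with medians of -0.46 for the members and -0.14 for all genes. Rescaling each library by a median of ratios moved the median of all genes in the last comparison by 0.15 on the log2 scale, to 0.01, and the higher share of all called genes to 54.7%, against 41.3% as deposited. The members then had a median of -0.30, with 4 higher and 14 lower, the calls for Gpi1 and Pgk1 being lost and Aldoa passing as higher. Neighbouring comparisons share libraries, so each is read on its own. Of the 30 members listed at all ages, 13 had their highest mean at E18 and 14 their lowest at P70, against 21.0% and 40.5% of the 10721 genes listed at all ages.

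**Figure D1:**
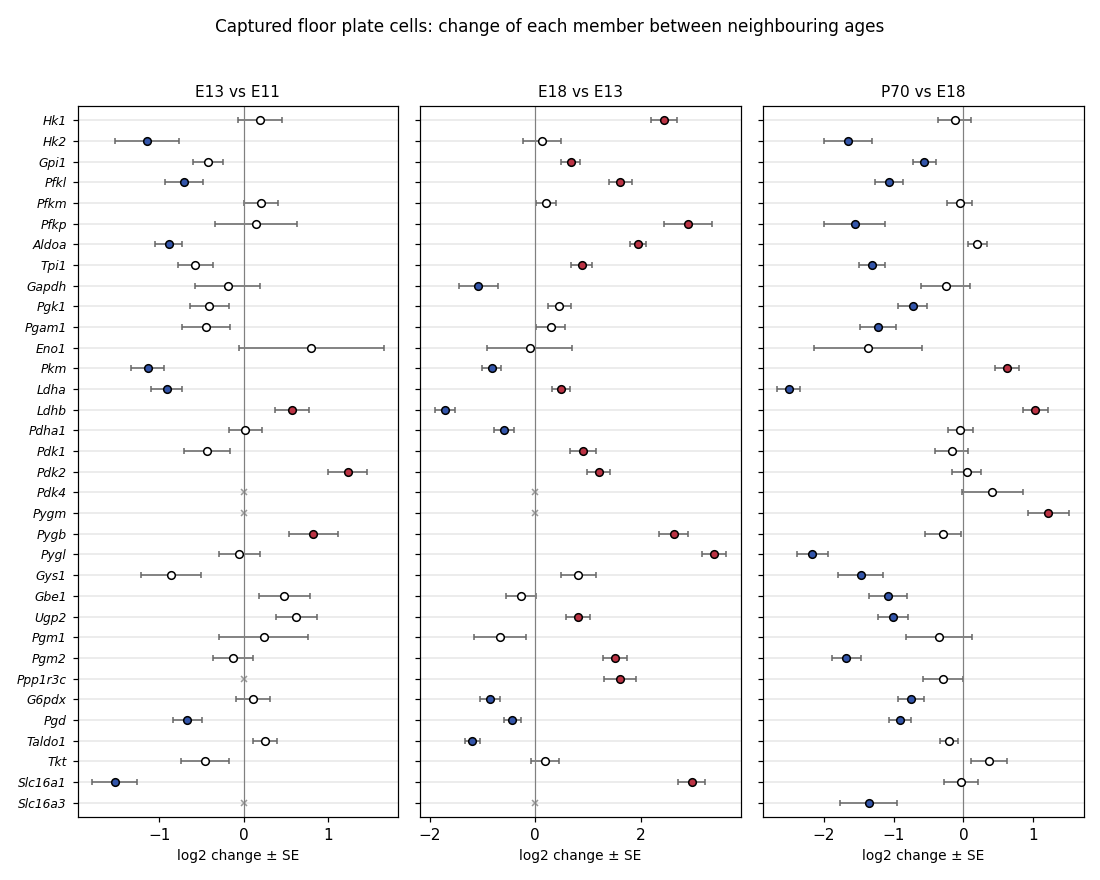
Log2 change (x axis, on the log2(units + 1) scale) with its standard error for each of the 34 members (rows) between neighbouring ages in captured cells; red points are higher and blue points lower in the later age at an adjusted p under 0.05, white points did not pass, and grey crosses mark members not listed at both ages. The widest positive changes sit in the middle panel, with Pygl at 3.39, Slc16a1 at 2.97 and Pfkp at 2.90, and the widest negative one is Ldha at -2.50 for P70 against E18.

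Hexokinase, which traps glucose in the cell as its phosphate, changed isoenzyme over development. Hk2, the inducible form, measured 14.3, 15.7, 13.3 and 16.5 units at E11 and 6.16, 5.97, 5.15, 5.30 and 8.70 units at E13. It measured 4.60, 8.26, 2.33, 13.1 and 11.4 units at E18 and at P70 had a lowest value of 0, a median of 1.79 and a highest of 2.72 units. All E11 libraries lay above all E13 and P70 libraries, while E18 spanned from the P70 range nearly to that of E11. Hk2 was lower in E13 than E11, with a change of -1.15 on the log2 scale (SE 0.38, limma adjusted p = 0.0356) and lower in P70 than E18 by -1.65 (SE 0.34, adjusted p = 0.000649). The first of these calls was lost when any one of the 4 E11 libraries or E13 replicates 1 to 4 was left out, with log2 changes between -1.20 and -1.1, and with a pseudocount of 0.1 at -1.26. With that pseudocount the second change was -2.43.

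Hk1, the form that most adult brain cells use, ran the other way. It measured 3.54, 3.94, 3.23 and 4.04 units at E11 and 3.96, 6.94, 5.35, 2.21 and 4.41 units at E13. At E18 the 5 libraries held 23.4, 32.9, 43.8, 16.7 and 30.4 units, and at P70 the lowest was 18.4, the median 27.9 and the highest 31.1 units. Every E18 and P70 library exceeded every E11 and E13 library. Hk1 was higher in E18 than E13 by 2.44 (SE 0.25, limma adjusted p = 7.87e-08), with differences of 0.19 (SE 0.26, adjusted p = 0.671) for E13 against E11 and -0.12 (SE 0.24, adjusted p = 0.714) for P70 against E18, the last of which turned to 0.05 under median of ratios scaling. As a share of Hk1 and Hk2 together, Hk2 made up 80.0% to 80.4% in E11, 46.3% to 70.5% in E13, 5.05% to 44.1% in E18 and 0% to 12.9% in P70 libraries.

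Phosphofructokinase, the committed step, is encoded by Pfkl, Pfkm and Pfkp, named for liver, muscle and platelet. Pfkp had the wider range: 2.52, 4.67, 4.76 and 3.41 units at E11, then 7.13, 15.4, 3.70, 2.04 and 1.1 units at E13. At E18 it measured 21.0, 32.2, 101, 26.9 and 43.1 units, and at P70 a lowest of 7.44, a median of 12.4 and a highest of 18.8 units. E18 lay above all other ages, and E18 replicate 3 stood far above the other E18 libraries. Pfkp was higher in E18 than E13 by 2.90 (SE 0.46, limma adjusted p = 2.44e-05; 2.55 without E18 replicate 3) and lower in P70 than E18 by -1.56 (SE 0.44, adjusted p = 0.00718; -1.21 without that library). Within E13 and within E18 the libraries ranked the same way for Pfkp and for the summed level of 8 neuronal markers, which was 2957.9 units in E13 replicate 2 and 971 in E13 replicate 5, and 2004 in E18 replicate 3 and 789.9 in E18 replicate 1. The order did not match within E11 or P70, and the part of neuronal RNA in the Pfkp result was not tested.

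Pfkl averaged 53.4 ± 11.4 units in E11 (SD, n = 4), 32.4 ± 6.97 in E13 (n = 5), 99.6 ± 7.97 in E18 (n = 5) and 49.0 ± 17.0 in P70 libraries (n = 6). It was lower in E13 than E11 (log2 change -0.71, SE 0.22, limma adjusted p = 0.0281), higher in E18 than E13 (1.62, SE 0.21, adjusted p = 2.42e-06) and lower in P70 than E18 (-1.07, SE 0.20, adjusted p = 0.00026). The first call was lost without E11 replicate 1, 2 or 4 or E13 replicate 2 or 4, with changes between -0.70 and -0.60. Pfkm stayed between 21.8 and 48.6 units in all 20 captured libraries and passed in no comparison of ages, with log2 changes of 0.20, 0.20 and -0.05, the last of which was 0.12 under median of ratios scaling. Pfkm therefore made up 39.2% to 48.3% of the summed phosphofructokinase level in E13 libraries and 18.7% to 21.2% in E18 libraries, which did not overlap.

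**Figure D2:**
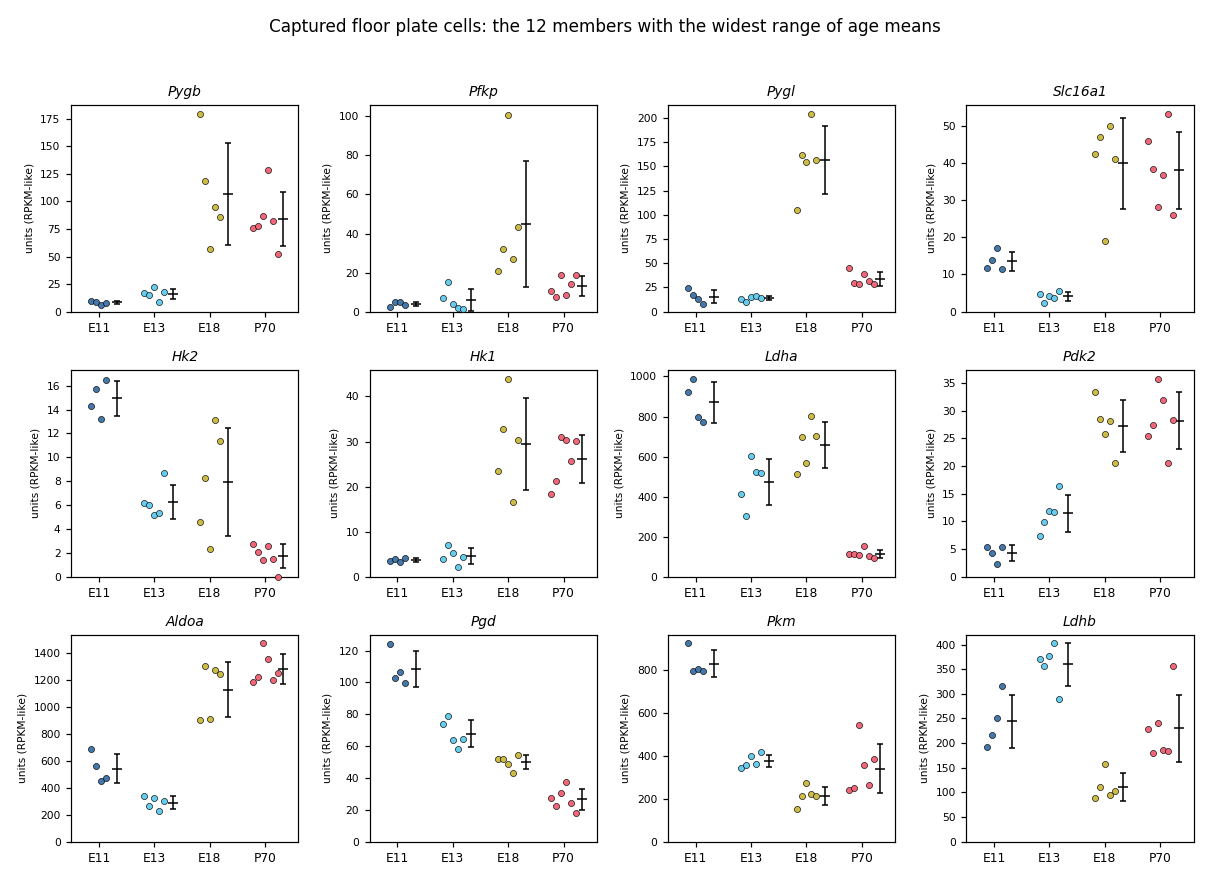
Level in units (y axes, from 0) of the 12 members with the widest range of age means among those listed at all 4 ages; each point is 1 captured library, grouped by age on the x axis, and the bar beside each group is its mean ± SD. Pygb, Pfkp, Pygl, Slc16a1, Hk1, Pdk2 and Aldoa are higher at E18 than at E13, Hk2 and Ldha reach their lowest levels at P70, and Ldhb and Pkm are lowest at E18.

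Further down the chain, Aldoa, the main aldolase, measured 686, 561, 453 and 471 units at E11 and 344, 264, 322, 226 and 302 at E13. It then measured 904, 1308, 913, 1278 and 1248 units at E18, and 1184, 1241 and 1474 units as lowest, median and highest at P70. E13 lay below and E18 and P70 above every E11 library. The log2 changes were -0.89 for E13 against E11 (SE 0.16, limma adjusted p = 0.000362), 1.95 for E18 against E13 (SE 0.15, adjusted p = 9.82e-10) and 0.20 for P70 against E18 (SE 0.14, adjusted p = 0.271). Gpi1, which turns glucose phosphate into fructose phosphate, averaged 108 ± 11.3 units at E18 and 68.1 ± 13.9 at E13 (SD, n = 5 each), a log2 change of 0.67 (SE 0.17, adjusted p = 0.00299). It averaged 74.2 ± 18.2 units at P70 (n = 6), lower than E18 by -0.56 (SE 0.17, adjusted p = 0.00959).

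Tpi1, which interconverts the triose phosphates, followed a like course, at 435 ± 62.8 units in E11 (SD, n = 4), 292 ± 45.1 in E13 (n = 5), 537 ± 73.8 in E18 (n = 5) and 225 ± 83.5 in P70 libraries (n = 6). It was higher in E18 than E13 by 0.88 (SE 0.20, limma adjusted p = 0.000944) and lower in P70 than E18 by -1.31 (SE 0.19, adjusted p = 1.43e-05), while its difference of -0.58 for E13 against E11 did not pass (SE 0.21, adjusted p = 0.0561). That difference passed with only the 2 ages in the fit, with array weights and without E11 replicate 3. P70 replicate 3, at 366 units, and replicate 6, at 287, lay above the other 4 P70 libraries, which held 161 to 194 units.

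Gapdh, Pgk1, Pgam1 and Eno1 have near-identical processed copies in the mouse genome, and the value steps showed that reads over only 508, 665, 345 and 76 bases of them were counted in captured cells. Gapdh rested on 908 reads over all 20 libraries and Eno1 on 174, so their levels are not comparable with those of Aldoa or Tpi1. Gapdh averaged 13.5 ± 5.83 units at E18 and 29.7 ± 12.2 at E13 (SD, n = 5 each), lower by -1.08 (SE 0.37, limma adjusted p = 0.0201); the groups overlapped, and the call was lost without E13 replicate 3 or 5 or E18 replicate 2, at -0.94, -0.94 and -0.85. Pgk1 averaged 38.3 ± 14.2 units at P70 (n = 6) and 61.6 ± 12 at E18 (n = 5), lower by -0.73 (SE 0.21, adjusted p = 0.00815). Pgam1 averaged 25.1 ± 8.47 units at P70 and 61.1 ± 25.5 at E18, lower by -1.22 (SE 0.26, adjusted p = 0.000757). Eno1 ranged from 0 to 77.8 units over the captured libraries and passed in no comparison of ages, except that with the replicate block, which takes P70 replicate 6 out of the comparison, it was lower in P70 than E18 by -1.6 (limma adjusted p = 0.0301).

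Pkm, the pyruvate kinase that ends glycolysis, measured 925, 795, 803 and 798 units at E11 and 345, 358, 399.6, 363 and 417 at E13. It measured 153, 216, 273, 221 and 214 units at E18, and 243, 311 and 543 units as lowest, median and highest at P70. The E11, E13 and E18 libraries did not overlap one another, and P70 overlapped E13 and E18. Pkm was lower in E13 than E11 by -1.14 (SE 0.20, limma adjusted p = 0.000317), lower in E18 than E13 by -0.82 (SE 0.19, adjusted p = 0.000967) and higher in P70 than E18 by 0.62 (SE 0.18, adjusted p = 0.00786). The table has 1 row for Pkm, so the M1 and M2 splice forms were not separated.

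The balance of the lactate dehydrogenase genes turned between E18 and P70, with Ldha lower and Ldhb higher at P70. Ldha measured 925, 988, 795 and 774 units at E11 and 415, 304, 601, 523 and 518 at E13. It measured 512, 699, 567, 801 and 703 units at E18, and 95.2, 110.1 and 153 units as lowest, median and highest at P70. Every P70 library lay below every library of the other ages. Ldha was lower in P70 than E18 by -2.50 (SE 0.17, limma adjusted p = 5.18e-10) and lower in E13 than E11 by -0.91 (SE 0.18, adjusted p = 0.00121). The difference of 0.49 for E18 against E13 (SE 0.17, adjusted p = 0.0225) lost its call without E13 replicate 1 or 2 or E18 replicate 2 or 4, at 0.46, 0.35, 0.47 and 0.42.

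Ldhb measured 192, 216, 252 and 315 units at E11 and 372, 357, 377, 403 and 289 at E13. It measured 88.3, 111, 158, 94.1 and 103 units at E18, and 180.3, 208 and 357 units as lowest, median and highest at P70. The E18 libraries lay below all others. Ldhb was lower in E18 than E13 by -1.71 (SE 0.19, limma adjusted p = 3.21e-07) and higher in P70 than E18 by 1.03 (SE 0.18, adjusted p = 0.000139). Its rise of 0.57 for E13 against E11 (SE 0.20, adjusted p = 0.0495) lost its call without any one of E11 replicates 1 to 3 or E13 replicates 1 to 4, at 0.47 to 0.60, with a pseudocount of 0.1, and under median of ratios scaling. As a share of the summed level of Ldha and Ldhb, Ldhb made up 17.2% to 28.9% in E11, 35.8% to 54.0% in E13, 10.5% to 21.8% in E18 and 55.0% to 79.0% in P70 libraries. In all 6 P70 libraries Ldhb exceeded Ldha, which was so in 1 of 5 E13 libraries and in 0 of the 4 E11 and 5 E18 libraries. The counted length of Ldha was not resolved, so which of the 2 is the higher rests on the deposited scaling.

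**Figure D3:**
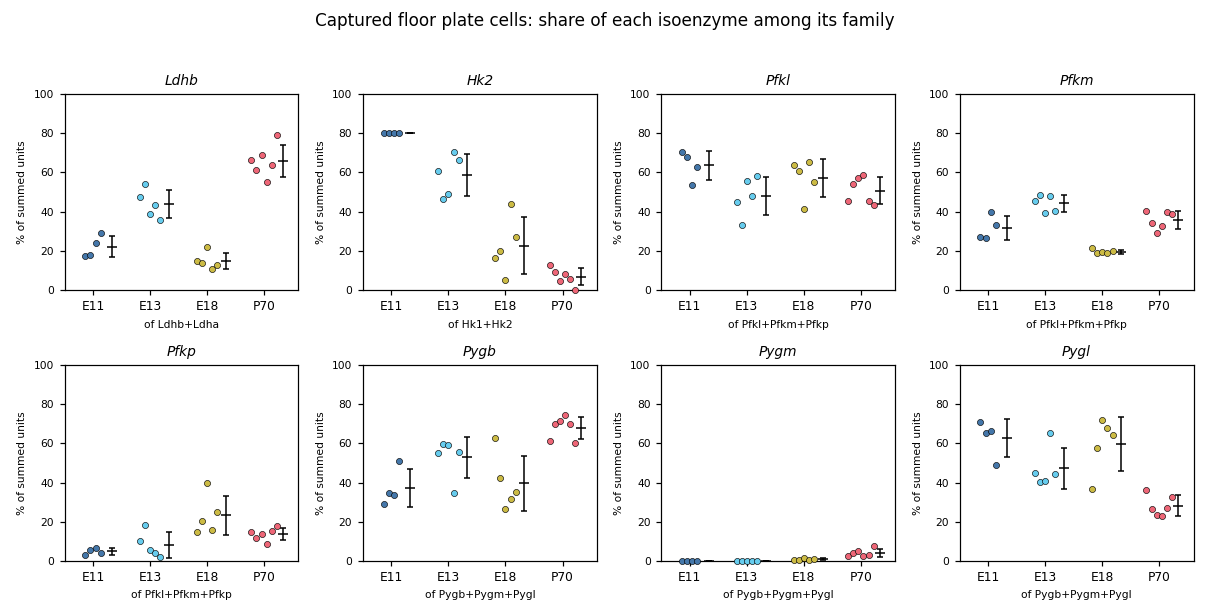
Share of each isoenzyme in the summed level of its family (y axes, 0 to 100%), by age; each point is 1 captured library and bars are mean ± SD. Pygm was not listed at E11 and E13 and is drawn there as 0. Hk2 makes up 80.0% to 80.4% of hexokinase at E11 and at most 12.9% at P70, and Ldhb 55.0% to 79.0% of lactate dehydrogenase at P70.

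Of the genes that govern pyruvate entry, Pdk2, a pyruvate dehydrogenase kinase, measured 5.32, 4.31, 2.27 and 5.44 units at E11 and 7.37, 9.90, 11.9, 11.7 and 16.4 at E13. It measured 33.4, 28.4, 25.7, 28.1 and 20.5 units at E18, and 20.6, 27.8 and 35.7 units as lowest, median and highest at P70. The E11, E13 and E18 libraries formed separate ranges, and P70 overlapped E18. Pdk2 was higher in E13 than E11 by 1.23 (SE 0.23, limma adjusted p = 0.000706) and higher in E18 than E13 by 1.21 (SE 0.22, adjusted p = 0.000116), with a difference of 0.05 for P70 against E18 (SE 0.21, adjusted p = 0.883) that was -0.01 with array weights. Pdk1, a kinase of the same family and a known target of hypoxia-inducible factor, averaged 14.6 ± 3.29 units at E18 and 7.38 ± 2.03 at E13 (SD, n = 5 each), higher by 0.90 (SE 0.25, adjusted p = 0.00558). Pdk4, the kinase linked to fasting and fat use, was listed only at E18 and P70, at 2.3 ± 1.33 units (n = 5) and 3.43 ± 1.94 units (n = 6). Pdha1, the enzyme subunit these kinases act on, was lower in E18 than E13 by -0.59 (SE 0.19, adjusted p = 0.0121), at 43.2 ± 13.7 and 63.9 ± 9.54 units.

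Of the glycogen phosphorylases, Pygl and Pygb were both higher in E18 than E13. Pygl measured 24.2, 16.7, 12.7 and 7.88 units at E11 and 13.5, 10.1, 15.2, 16.3 and 14.3 at E13. It measured 105, 162, 154, 204 and 156 units at E18, and 28.2, 30.7 and 44.9 units as lowest, median and highest at P70. The E18 libraries lay far above every other library, and P70 above E11 and E13. The ratio of the E18 and E13 means was 11.3, and the log2 change was 3.39 (SE 0.23, limma adjusted p = 2.22e-10); P70 was lower than E18 by -2.17 (SE 0.22, adjusted p = 2.05e-07). Within E11 the order of Pygl over the 4 libraries was that of the summed endothelial and mural markers, at 679, 404, 324 and 237 units. The summed cycling cell markers, at 1510, 1473, 1449 and 1393 units, had the same order. So did the summed astrocyte markers, at 83.9, 72.7, 72.4 and 47.4 units. The endothelial and mural order matched that of Pygl within E18 as well, but not within E13 or P70. Whether any of these cells contributed was not tested.

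Pygb measured 9.91, 8.83, 6.41 and 8.25 units at E11 and 16.5, 15.0, 22.0, 8.59 and 17.8 at E13. It measured 179, 118, 56.5, 94.9 and 85.6 units at E18, and 52.2, 80.2 and 128 units as lowest, median and highest at P70. The E18 and P70 ranges overlapped and both lay above all E11 and E13 libraries. Pygb was higher in E18 than E13 by 2.62 (SE 0.27, limma adjusted p = 1.20e-07), and differed by -0.29 in P70 against E18 (SE 0.26, adjusted p = 0.399). Its difference of 0.82 for E13 against E11 (SE 0.29, adjusted p = 0.0499) lost its call without any one of the 4 E11 libraries or E13 replicates 1, 2, 3 or 5, at 0.69 to 0.90, and with the replicate block, at 0.83 (adjusted p = 0.0545). Pygm was not listed at E11 or E13. It was higher in P70 than E18 by 1.22 (SE 0.30, adjusted p = 0.00464; 1.73 with a pseudocount of 0.1), at 4.65 ± 1.43 units (n = 6) and 1.52 ± 1.03 units (n = 5), from 20 to 60 reads per library at P70 and 6 to 45 at E18. Of the summed phosphorylase level, Pygl made up 36.8% to 72.1% in E18 libraries and Pygb 60.2% to 74.7% in P70 libraries.

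On the building side, Ugp2, which makes the UDP-glucose that glycogen synthase uses, averaged 77.8 ± 8.39 units at E18 and 44.0 ± 6.14 at E13 (SD, n = 5 each), higher by 0.81 (SE 0.23, limma adjusted p = 0.00562). It averaged 40.4 ± 15.2 units at P70 (n = 6), lower than E18 by -1.01 (SE 0.22, adjusted p = 0.000906). Ppp1r3c, a subunit that brings a phosphatase to glycogen and activates synthase, was not listed at E11. It averaged 23.4 ± 6.69 units at E18 and 7.16 ± 2.96 at E13, higher by 1.6 (SE 0.30, adjusted p = 0.000254), and 19.1 ± 7.34 units at P70. Gys1, the glycogen synthase of muscle and brain, averaged 4.86 ± 3.96 units at P70 and 12.6 ± 1.6 at E18, lower by -1.48 (SE 0.32, adjusted p = 0.00101). Its 0.82 for E18 against E13 did not pass (SE 0.34, adjusted p = 0.0511) although the libraries of the 2 ages did not overlap. It passed under 5 of the alternatives, with limma adjusted p between 0.00159 with only the 2 ages in the fit and 0.0459 with a mean of at least 5 units. Gbe1, the branching enzyme, averaged 3.09 ± 1.92 units at P70 and 7.01 ± 1.27 at E18, lower by -1.09 (SE 0.27, adjusted p = 0.00315).

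Pgm1 and Pgm2 have exchanged symbols between annotation versions, each being given as a synonym of the other, and 825 of the captured symbols are older ones. Which enzyme the captured rows hold was not settled, so the symbols are those of the table. Phosphoglucomutase links glucose phosphate to glycogen. The captured Pgm2 row averaged 82.7 ± 11.6 units at E18 and 28.2 ± 1.95 at E13 (SD, n = 5 each), higher by 1.51 (SE 0.22, limma adjusted p = 1.15e-05), and 27.2 ± 14.4 units at P70 (n = 6), lower than E18 by -1.68 (SE 0.21, adjusted p = 3.38e-06). The captured Pgm1 row lay between 7.52 and 19.4 units in all libraries but P70 replicate 3, where it was 0, and passed in no comparison, except for E18 against E13 with only the 2 ages in the fit or with array weights; its -0.35 for P70 against E18 turned to 0.26 without that library.

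Of the 4 pentose phosphate genes, 3 were lower in E18 than E13, and the exception was Tkt. Pgd, phosphogluconate dehydrogenase, measured 124, 103, 107 and 99.4 units at E11 and 74.2, 79.1, 64.1, 57.9 and 64.5 at E13. It measured 52.1, 52.0, 48.7, 42.9 and 54.5 units at E18, and 18.4, 26.0 and 37.2 units as lowest, median and highest at P70. The 4 ages did not overlap. Pgd was lower in E13 than E11 by -0.67 (SE 0.17, limma adjusted p = 0.00767) and lower in P70 than E18 by -0.91 (SE 0.15, adjusted p = 8.62e-05). The fall of -0.43 for E18 against E13 (SE 0.16, adjusted p = 0.0327) lost its call without E13 replicate 1 or 2 or E18 replicate 4, at -0.40, -0.37 and -0.38, and under median of ratios scaling.

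G6pdx, the glucose phosphate dehydrogenase that opens the pathway, averaged 29.3 ± 1.56 units in E11 (SD, n = 4), 31.8 ± 4.30 in E13 (n = 5), 17.3 ± 3.80 in E18 (n = 5) and 9.94 ± 2.71 in P70 libraries (n = 6). It was lower in E18 than E13 by -0.86 (SE 0.19, limma adjusted p = 0.000819) and lower in P70 than E18 by -0.75 (SE 0.18, adjusted p = 0.00234). Taldo1, transaldolase, averaged 140.1 ± 23.2 units at E18 and 319 ± 30.8 at E13 (n = 5 each), lower by -1.19 (SE 0.14, adjusted p = 4.61e-07). Tkt, transketolase, passed in no comparison of ages, with means between 40.3 units at E13 and 62.0 at P70.

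Of the transporters that carry lactate and pyruvate across the membrane, Slc16a1 (MCT1) measured 11.7, 13.8, 17.0 and 11.6 units at E11 and 4.70, 2.26, 4.27, 3.77 and 5.56 at E13. It measured 42.4, 47.1, 19.0, 50.0 and 41.0 units at E18, and 26.1, 37.5 and 53.1 units as lowest, median and highest at P70. The E13 libraries lay below all others, and the E18 and P70 libraries above all E11 ones. Slc16a1 was lower in E13 than E11 by -1.53 (SE 0.27, limma adjusted p = 0.000371) and higher in E18 than E13 by 2.97 (SE 0.25, adjusted p = 6.45e-09), a ratio of means of 9.71. Its -0.04 for P70 against E18 (SE 0.24, adjusted p = 0.916) turned to 0.13 under median of ratios scaling. Slc16a3 (MCT4), the exporter of strongly glycolytic cells, was not listed at E13 and averaged 5.22 ± 2.24 units at E11 (SD, n = 4), 4.34 ± 1.84 in E18 (n = 5) and 1.41 ± 1.90 in P70 libraries (n = 6). It was lower in P70 than E18 by -1.36 (SE 0.41, adjusted p = 0.0136; -2.37 with a pseudocount of 0.1), and P70 replicate 4, at 5.13 units, lay inside the E18 range.

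Other genes of these pathways were counted from lists, here and in the next paragraph, and no list was tested as a set. Among all genes tested, 22.2% were higher and 24.8% lower for E18 against E13. The shares were 16.8% and 23.9% for P70 against E18, and 9.26% and 11.2% for E13 against E11. Of 8 glucose transporters, 3 were tested for E18 against E13 and 2 were higher, the common carrier Slc2a1 by 0.91 (SE 0.24, limma adjusted p = 0.00358) and the neuronal carrier Slc2a3 by 2.05 (SE 0.34, adjusted p = 3.74e-05). In P70 against E18, 1 of 5 tested was higher and 1 lower: Slc2a1 averaged 349.6 ± 63.5 units at P70 (SD, n = 6) and 105 ± 40.2 at E18 (n = 5), higher by 1.81, and Slc2a3 was lower by -1.62. Of 18 other glycolytic and gluconeogenic isoenzymes, 4 were listed at E18 but not at E13, and 1 at E13 but not at E18. For E18 against E13, 5 of 10 tested were higher and 1 lower. They included Aldoc, the astrocytic aldolase, at 157 ± 30.4 units in E18 and 11.2 ± 7.90 in E13 (n = 5 each), higher by 3.86, and Eno2, the neuronal enolase, higher by 3.08. For P70 against E18, 3 of 13 were higher, among them Hkdc1, a hexokinase-like gene, at 27.6 ± 8.49 units in P70 and 5.73 ± 2.99 in E18, and 1 was lower. Of 5 genes for the PFKFB enzymes and Tigar, which set the activator of phosphofructokinase, 2 of 3 were higher for E18 against E13, and for P70 against E18 Pfkfb3 was the 1 of 4 that passed, lower by -2.13.

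Of 19 further glycogen genes, 3 were listed at E18 but not at E13. Over all genes, 13340 were listed at E18 and 11797 of them were tested against E13. Of 12 tested for E18 against E13, 7 were higher and 0 lower, beside 22.2% and 24.8% of all genes. They included Gyg, the glycogen primer, at 84.7 ± 10.7 units in E18 and 50.2 ± 6.51 in E13 (SD, n = 5 each), the phosphorylase kinase genes Phka1, Phka2 and Phkb, and Gaa, the lysosomal glycogen enzyme, which was higher by 1.49. In P70 against E18, 2 of 14 were higher and 3 lower, beside 16.8% and 23.9% of all genes. Gyg was lower by -1.89 (SE 0.21, limma adjusted p = 6.75e-07) and the phosphorylase kinase gene Phkg1 higher by 2.03. Of 9 genes of pyruvate entry, 2 were higher and 0 lower for E13 against E11, the carrier genes Mpc1 and Mpc2, and 0 were higher and 3 lower in each of the later comparisons. Of 7 further pentose phosphate genes, 0 of 4 were higher and 2 lower for E18 against E13, Rpe by -1.52 and Pgls by -0.64. Of 6 genes of monocarboxylate transport, the partner protein gene Emb was lower by -3.30 in E13 against E11, at 3.10 ± 0.359 units (n = 5) and 39.6 ± 7.81 units (n = 4), and higher by 1.27 in E18 against E13. Of 10 genes known as hypoxia-inducible factor targets or encoding the factor itself, 5 of 9 were higher and 1, Hif1a, lower for E18 against E13, and 2 of 9 were higher and 6 lower for P70 against E18. In P70 libraries, set against E18, Vegfa was lower by -2.08 and Bnip3 by -1.02, while Car9 was higher by 2.26.

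Markers of cell types and states moved with the age groups, and their part in the results above was not tested. Summed ependymal markers (7 of 8 with a row) held 14349 to 21854 units at P70, 6273 to 9093 at E18, 40.8 to 81.1 at E13 and 17.1 to 47.0 at E11. Summed markers of cycling cells (8 of 8) held 5.38 to 11.1 units at P70, 38.3 to 51.7 at E18, 261 to 659 at E13 and 1393 to 1510.4 at E11. Astrocyte markers (8 of 8) held 1181 to 1552 units at P70, 665 to 1099 at E18, 229 to 364 at E13 and 47.4 to 83.9 at E11. Their sum includes Aldoc, given above among the glycolytic isoenzymes, which averaged 240 units at P70 and 157 at E18. Red cell genes (4 of 8 with a row) held 7.13 to 293 units at P70, 1.62 to 6.85 at E18, 3614 to 13456 at E13 and 8093 to 23397 at E11. Neuronal, oligodendrocyte, microglial and endothelial sums lay at 424 to 699, 361 to 951, 294 to 449 and 22.8 to 89.5 units at P70 and at 789.9 to 2004, 149 to 206, 75.0 to 371 and 77.2 to 130.1 units at E18. At E13 these 4 sums lay at 971 to 2957.9, 8.66 to 12.6, 138 to 220.3 and 83.7 to 127 units, and at E11 at 334 to 876, 7.26 to 30.1, 33.1 to 77.3 and 237 to 679 units.

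In the spheres, 18 of 34 members were higher and 4 lower in MB than FB (edgeR, adjusted p under 0.05), beside 15.3% higher and 14.3% lower among all 12886 genes tested. The median log2 change was 0.33 for the members and -0.02 for all genes. The largest change was in muscle glycogen phosphorylase: Pygm measured 105, 89.3, 81.5, 107 and 118 CPM in MB spheres and 6.47, 7.76, 7.09, 8.76 and 7.87 CPM in FB spheres. The lowest MB library held over 9 times the highest FB library. The log2 change was 3.72 (SE 0.14, edgeR adjusted p = 1.04e-13). The brain form Pygb was higher by 0.32 (SE 0.09, adjusted p = 0.0124), at 137 ± 20.1 CPM in MB and 109 ± 7.23 in FB (SD, n = 5 each), and the liver form Pygl, at 6.37 ± 1.46 and 3.43 ± 1.35 CPM, differed by 0.89 without passing (SE 0.36, adjusted p = 0.0700). DESeq2 called Pygl higher in MB, by 0.90 (adjusted p = 0.0376), and edgeR did so without FB replicate 2. Counts are not per length, so levels of different genes are not compared here.

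**Figure D4:**
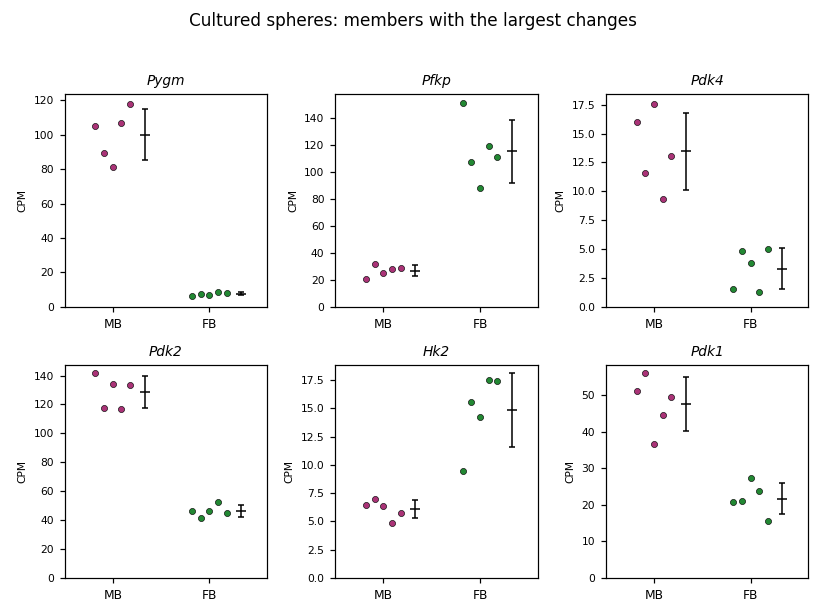
Level in CPM (y axes, from 0) of the 6 members with the largest passing changes between MB (left in each panel) and FB spheres (right); each point is 1 library and bars are mean ± SD, n = 5 each. Pygm, Pdk4, Pdk2 and Pdk1 are higher in MB, and Pfkp and Hk2 are lower.

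The pyruvate dehydrogenase kinases were higher in MB. Pdk4 measured 16.0, 11.6, 17.6, 9.30 and 13 CPM in MB and 1.5, 4.87, 3.82, 1.32 and 5.04 CPM in FB spheres, a log2 change of 2.02 (SE 0.36, edgeR adjusted p = 0.00023). Pdk2 measured 142, 117, 134, 117 and 133 CPM in MB and 46.4, 41.2, 46.0, 52.6 and 45.0 CPM in FB spheres, a log2 change of 1.48 (SE 0.09, adjusted p = 2.40e-10). Pdk1 measured 51.2, 56.1, 36.7, 44.6 and 49.4 CPM in MB and 20.6, 20.9, 27.3, 23.8 and 15.6 CPM in FB spheres, a log2 change of 1.13 (SE 0.16, adjusted p = 1.80e-05). In none of the 3 did the MB and FB libraries overlap, as in 20 of all 34 members. The share of all genes without overlap was not computed. Pdha1, their target, was at 519.8 ± 27.5 CPM in MB and 487 ± 26.9 in FB (SD, n = 5 each), differing by 0.09 (SE 0.05, adjusted p = 0.219).

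The platelet phosphofructokinase and hexokinase II were lower in MB. Pfkp measured 21.0, 31.6, 25.3, 27.9 and 28.8 CPM in MB and 151, 107, 87.9, 119 and 111 CPM in FB spheres, a log2 change of -2.10 (SE 0.14, edgeR adjusted p = 5.81e-10). Hk2 measured 6.47, 6.96, 6.33, 4.89 and 5.74 CPM in MB and 9.48, 15.5, 14.3, 17.5 and 17.5 CPM in FB spheres, a log2 change of -1.29 (SE 0.24, adjusted p = 0.000356). Their isoenzymes moved the other way, with Hk1 higher by 0.59 (SE 0.09, adjusted p = 4.61e-05), Pfkm by 0.94 (SE 0.10, adjusted p = 5.29e-07) and Pfkl by 0.50 (SE 0.09, adjusted p = 0.000272). As a share of counts of the 3 phosphofructokinase genes, Pfkp made up 5.55% to 8.16% in MB and 30.5% to 41.6% in FB libraries; the counts are not per length, so this share compares MB with FB only.

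Most other glycolytic genes were higher in MB by smaller amounts. Tpi1 averaged 964 ± 57.9 CPM in MB and 512 ± 37.1 in FB (SD, n = 5 each), higher by 0.91 (SE 0.06, edgeR adjusted p = 3.21e-10), and Gpi1 averaged 927 ± 40.9 and 512 ± 29.5 CPM, higher by 0.86 (SE 0.05, adjusted p = 1.68e-10). Pkm, Ldha, Eno1 and Aldoa were higher by 0.46, 0.41, 0.34 and 0.28. Ldhb was higher by 0.15 (SE 0.05, adjusted p = 0.0297), a call lost without any one of MB replicates 2, 4 or 5 or FB replicates 3 to 5, at 0.13 to 0.16. Pgk1 was lower by -0.27 (SE 0.05, adjusted p = 0.000267), at 609 ± 25.3 CPM in MB and 733 ± 29.3 in FB. Gapdh and Pgam1 differed by 0.13 and -0.03 and did not pass.

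Among the glycogen genes of the spheres, Pgm1 as named in that table was higher in MB by 0.94 (SE 0.07, edgeR adjusted p = 3.61e-09), at 252 ± 15.8 CPM in MB and 131 ± 9.87 in FB (SD, n = 5 each). Ugp2 was higher by 0.68 (SE 0.08, adjusted p = 3.88e-06) and Gbe1 by 0.62 (SE 0.18, adjusted p = 0.0142). Ppp1r3c was lower by -0.81 (SE 0.18, adjusted p = 0.00179), at 30.6 ± 6.80 CPM in MB and 53.8 ± 15.3 in FB. Gys1 differed by 0.26 and Pgm2 by -0.30 without passing, though Gys1 passed without FB replicate 4. None of the 4 pentose phosphate genes passed, with log2 differences of -0.14 for G6pdx, -0.19 for Pgd, 0.12 for Taldo1 and 0.00 for Tkt (SE 0.06 to 0.07), though Pgd was called lower by DESeq2 and by edgeR without FB replicate 1. Of the transporters, Slc16a1 was at 109 ± 12.9 CPM in MB and 108 ± 16.3 in FB, and Slc16a3 at 3.89 ± 0.707 and 1.67 ± 0.990 CPM, which differed by 1.21 without passing (SE 0.47, adjusted p = 0.0598). DESeq2 called Slc16a3 higher in MB, by 1.23 (adjusted p = 0.0311), and edgeR did so without FB replicate 4.

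**Figure D5:**
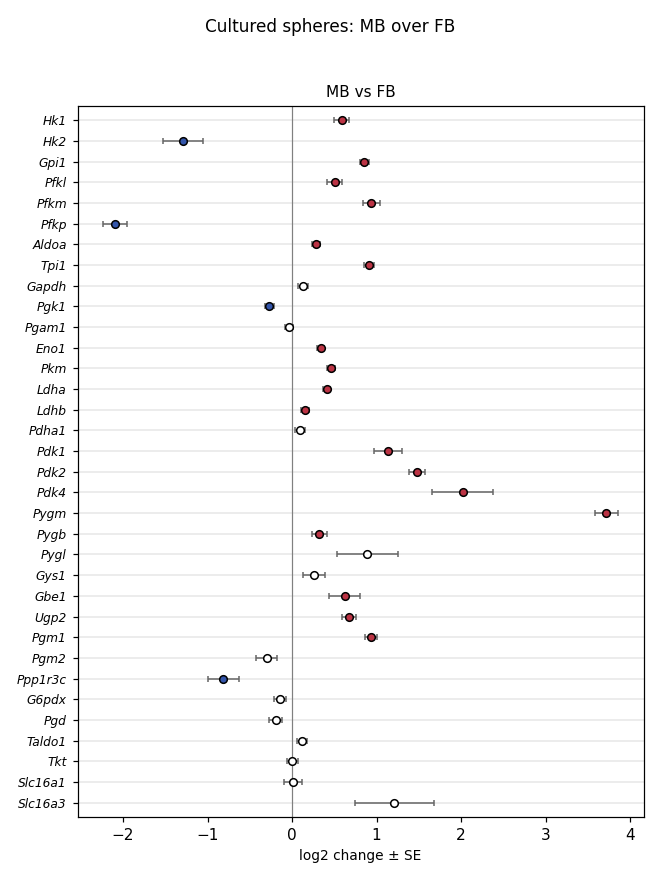
Log2 change (x axis) with its standard error for each of the 34 members (rows) in MB over FB spheres; red points are higher and blue points lower in MB at an adjusted p under 0.05, and white points did not pass. Pygm stands at 3.72 and Pfkp at -2.10, and the other members lie between -1.29 and 2.02.

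The further pathway lists are set beside 15.3% higher and 14.3% lower in MB among all genes tested. Of 6 glucose transporters tested, 3 were higher in MB and 0 lower, Slc2a1 by 0.36, Slc2a8 by 0.90 and Slc2a12 by 1.13. Of 10 other glycolytic and gluconeogenic isoenzymes tested, 2 were higher, Pck2 by 1.26 and Aldoc by 0.40, and 2 lower, Pcx by -1.03 and Bpgm by -0.34. Of 9 genes of pyruvate entry, 5 were higher (Mpc2, Pdhb, Pdhx, Dld and Pdk3) and 0 lower. Of 15 glycogen genes tested, 4 were higher, Gaa by 0.77, Phka2 by 0.62, Gyg by 0.35 and Phkb by 0.25, and 2 lower, Phkg2 by -0.46 and Gsk3b by -0.31. Of the PFKFB and Tigar genes, Pfkfb2 was higher by 0.83 and Pfkfb3 lower by -0.81, and of 5 pentose phosphate genes tested, Rpe was lower by -0.31. Bsg, the partner protein of the lactate transporters, was higher by 0.37 and Emb lower by -0.62. Of 8 hypoxia-related genes tested, 4 were higher, among them Ndrg1 by 1.56, Bnip3 by 1.03 and Hif1a by 0.71, and 2 lower, Egln3 by -1.04 and Adm by -0.72.

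Cell markers also differed between the kinds of sphere. Cycling cell markers (8 of 8) summed to 1378 to 1458 CPM in MB and 1728 to 1951 in FB spheres, and oligodendrocyte lineage markers (8 of 8) to 2955 to 3629.8 and 3741 to 4189 CPM. Astrocyte markers (8 of 8) summed to 3718 to 3923 CPM in MB and 3767 to 4031 in FB, and neuronal markers (8 of 8) to 434 to 514 and 348 to 401 CPM. The astrocyte sum includes Aldoc, also listed among the glycolytic isoenzymes, at 1004 CPM in MB and 762 in FB. By gene, 4 of 8 astrocyte markers tested were higher and 3 lower in MB. Only 3 neuronal markers were tested, 1 being higher and 1 lower, with a median log2 change of -0.78. Ependymal markers (8 of 8) held 32.2 to 44.6 CPM in MB and 18.7 to 22.7 in FB, and midbrain floor plate markers (9 of 9) 21.3 to 25.2 and 2.83 to 8.07 CPM, with Lmx1a itself at 0.216 ± 0.325 and 0.508 ± 0.656 CPM (SD, n = 5 each). Only 3 ependymal and 2 floor plate markers had enough counts to be tested, with 2 and 1 higher in MB and 0 lower. Sums of microglial, endothelial and red cell genes stayed at or under 23.3 CPM in every sphere library. The part of these differences in the results on glycolysis and glycogen genes was not tested.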

How the data were processed

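Captured cells were deposited by the authors as 1 table of normalised values with decimal commas; no source used here gives its unit, and its values behave as RPKM. The spheres were deposited by the authors as raw counts per gene. The submitters' processing notes name STAR 2.3, Salmon 1.6.0, DESeq2 1.34.0, mm10 and GRCm39 without saying which step or table each belongs to. Of 15139 captured lines, 142 lines that share 11 repeated symbols were left out, and 0 columns were not used. Isoenzyme shares treat a member not listed at an age as 0 there. The counted lengths of Ldha, Hk1, Pfkm and Pfkp were not resolved, so the size of shares with them rests on the deposited scaling.

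Captured values were tested with limma 3.58.1 on log2(value + 1) with the trend option, all 20 libraries being in 1 fit over genes listed at both ages; fold changes on this scale understate changes of low genes. Sphere counts were tested with edgeR 4.0.16 (quasi-likelihood test, TMM, default filter on low counts) in R 4.3.3. Benjamini-Hochberg adjustment covered every gene tested, with a threshold of 0.05, and the tests were checked on simulated data. Captured depth was derived from the value of 1 read in each library; reads were resolved for 26 of 34 members, each value lying within 0.08 reads of a whole number. Libraries were made by amplifying cDNA without molecular identifiers, so reads are not independent molecules. Counting was not stated to use strand. The 2 tables were normalised separately and no test crosses them.

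Alternatives were a pseudocount of 0.1, a mean of at least 5 units, median of ratios scaling, only the ages compared, array weights, DESeq2 1.42.0 or its size factors, no filter on low counts, the replicate number as a block, and leaving out each library. All 34 members are reported by rule, and other genes by list. The members and lists were chosen with earlier results of these data known. Promoter windows are from RefSeq (GRCm38.p6).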

Additional observations from a re-analysis of the deposited data

Results flagged for a closer look

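Of 198 groups of 4 to 6 libraries, 14 held 1 library far from the others. Its gap to the nearest, divided by the range of the group, was above Dixon's 95% critical value. That value gives about 1 in 20 by chance only for normally distributed values, which was not checked for these untransformed levels. The share over all genes was not computed. No cause was tested.

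At E18, replicate 3 was highest for Pfkp, at 101 units with the others at 21.0 to 43.1, and for Pfkm, at 48.6 units with the others at 30.2 to 33.9. Replicate 4 was highest for Eno1, at 77.8 units with the others at 16.8 to 26.4, a gene read over 76 bases. Replicate 2 was highest for Gys1, at 15.4 units with the others at 11.6 to 12.4.

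At P70, replicate 6 was highest for Ldhb, at 357 units with the others at 180.3 to 241, and for Pgm2, at 55.8 units with the others at 16.7 to 26.4. Replicate 4, the shallowest P70 library, was highest for Ldha, at 153 units with the others at 95.2 to 115, and for Slc16a3, at 5.13 units with the others at 0 to 1.53. Replicate 3 was at 0 for Pgm1, with the others at 9.16 to 14.6 units.

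At E13, replicate 5 was highest for Hk2, at 8.70 units with the others at 5.15 to 6.16, and replicate 4 for Gbe1, at 13.8 units with the others at 6.84 to 8.06. At E11, replicate 1 was highest for Pkm, at 925 units with the others at 795 to 803, and for Tkt, at 62.6 units with the others at 51.3 to 52.4. In the FB spheres, replicate 3 was highest for Pgm1, at 149 CPM with the others at 124 to 131.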

How the results depend on the processing

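Of the members that passed, 6 of 10 kept their call under every alternative run for E13 against E11, 19 of 22 for E18 against E13, 17 of 19 for P70 against E18 and 21 of 22 for MB against FB. For E13 against E11, 2364 genes were called, 3811 with only the 2 ages in the fit and 4836 with array weights, which also gave 12 lower members in place of 7; the cause was not tested. Leaving out 1 library gave 1 to 2 higher members there in place of 3, and 1714 to 2188 genes called. For P70 against E18, signs turned among members that had not passed: median of ratios scaling gave 0.0455 for Hk1, 0.12 for Pfkm, 0.12 for Pdha1 and 0.13 for Slc16a1, and array weights 0.056 for Pdha1 and -0.0131 for Pdk2. Signs also turned on leaving out 1 library, again only in differences that had not passed. The ranges were -0.26 to 0.48 for Pfkp, -0.33 to 0.037 for Gapdh, -0.0535 to 0.13 for Pdha1 and -0.31 to 0.19 for Pygl in E13 against E11, and -0.0738 to 0.45 for Hk2 and -0.68 to 0.15 for Eno1 in E18 against E13. For P70 against E18 they were -0.30 to 0.0337 for Hk1, -0.11 to 0.0724 for Pfkm, -0.16 to 0.10 for Pdha1, -0.30 to 0.0036 for Pdk1, -0.0477 to 0.13 for Pdk2, -0.54 to 0.26 for Pgm1 and -0.28 to 0.0589 for Slc16a1. For MB against FB they were -0.0441 to 0.0492 for Tkt and -0.0602 to 0.0668 for Slc16a1.

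Replicate numbers showed little sign of pairing the samples. Same-numbered libraries correlated at -0.15 to 0.25 over 27 captured pairs, 2 of them over 0.1, and at -0.01 to 0.04 over 5 sphere pairs. Low correlations cannot settle whether same-numbered libraries share an animal or batch, and no label says so. With the replicate block, 2592, 5791, 5000 and 3650 genes were called in E13 against E11, E18 against E13, P70 against E18 and MB against FB. In that order, 2, 16, 3 and 18 members were higher and 8, 7, 17 and 4 lower. Since number 6 occurs only at P70, the block takes that library out of P70 against E18, and its log2 changes there equal those without it for all 34 members. They include the turned signs of Pdha1 at 0.0051, Pdk1 at 0.0036 and Slc16a1 at 0.0582. DESeq2 called 4300 genes for MB against FB, with 20 members higher and 5 lower. Few reads limit Eno1, Gapdh, Pygm and other members, most at P70, and for Eno1 and Gapdh only 76 and 508 bases were counted.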
